A study of Mus musculus with 2 samples.

Results

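The genes described here make haemoglobin and build the red cell. They are 35 genes for globin chains and their chaperone, haem synthesis, iron uptake, the red cell membrane and its skeleton, blood group proteins and carbonic anhydrases. Their probes were found by gene name, through the accession printed for each probe. The rule uses no measured value, but the list was drawn up with earlier results of these data known. Of the 35 genes, 33 had a probe, and 29 were measured, meaning that at least 1 of their probes was well above background on at least 1 array by the scanner software's call. In all, 13716 genes were measured.

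RNA came from the fresh spleens of healthy, untreated male mice and was hybridised to 2 one-colour arrays. One array held RNA of Loxl3+/+ mice (wild type) and the other RNA of Loxl3-/- mice (knockout). Loxl3 encodes a lysyl oxidase, an enzyme class that crosslinks collagen and elastin. Strain, age, the kind of knockout allele and pooling of animals are not given in the sources used here. The comparison asks how red cell genes differ in spleen with the Loxl3 genotype. Each group is 1 array, so the differences have no replicate check and no p-value. The Loxl3 probe had a signal of 117 in wild type and 125 on the other array, a log2 difference of −0.43 ± 0.29, so it was no clear check of the label, and each array is named by its label, as the Loxl3+/+ or the Loxl3-/- array.

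In mouse spleen the red pulp both stores and removes blood cells and, unlike in adult humans, keeps making red cells. Erythroblasts take up transferrin-bound iron through the transferrin receptor and pass it to the mitochondrion. Haem is built there and in the cytosol by a chain of enzymes, then joined to alpha and beta globin chains to give haemoglobin. The cell's shape depends on a spectrin and actin network under the membrane, tied to the anion exchanger and the Rh proteins by ankyrin, protein 4.1 and related linkers.

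Many of these genes are known targets of the erythroid factors GATA1 and KLF1, whose sites hold the letters AGATAA for the first and CACCC for the second. The letters of the promoters are shown for 4 members whose values differed in kind: an alpha-globin gene, the 2 surface protein genes Rhd and Kel, both lower on the Loxl3-/- array, and Alas2, which was not. Each line gives the 250 bases before the annotated start, from RefSeq on the assembly GRCm38.p6, written 5′ to 3′ along the gene. Capitals mark AGATAA (the GATA type), CACCC (the core of the KLF site) and the CCAAT box on either strand, so some appear as their reverse complement.
Hba-a1, chr11:32283422-32283671, plus strand: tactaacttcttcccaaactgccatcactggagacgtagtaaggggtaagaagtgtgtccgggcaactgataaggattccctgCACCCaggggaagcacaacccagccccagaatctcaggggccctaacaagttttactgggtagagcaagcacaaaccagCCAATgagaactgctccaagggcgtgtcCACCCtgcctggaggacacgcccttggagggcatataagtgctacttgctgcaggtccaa
Rhd, chr4:134864286-134864535, plus strand: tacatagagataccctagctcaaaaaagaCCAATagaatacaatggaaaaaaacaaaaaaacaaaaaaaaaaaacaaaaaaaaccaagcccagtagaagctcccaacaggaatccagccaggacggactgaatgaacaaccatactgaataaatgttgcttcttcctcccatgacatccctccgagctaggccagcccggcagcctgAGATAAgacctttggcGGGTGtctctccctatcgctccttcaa
Kel, chr6:41704326-41704575, minus strand: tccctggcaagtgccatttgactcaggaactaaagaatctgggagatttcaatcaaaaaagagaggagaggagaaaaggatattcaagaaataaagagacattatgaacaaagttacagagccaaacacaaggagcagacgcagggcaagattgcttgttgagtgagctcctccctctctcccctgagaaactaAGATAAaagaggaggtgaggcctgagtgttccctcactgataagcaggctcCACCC
Alas2, chrX:150547167-150547416, plus strand: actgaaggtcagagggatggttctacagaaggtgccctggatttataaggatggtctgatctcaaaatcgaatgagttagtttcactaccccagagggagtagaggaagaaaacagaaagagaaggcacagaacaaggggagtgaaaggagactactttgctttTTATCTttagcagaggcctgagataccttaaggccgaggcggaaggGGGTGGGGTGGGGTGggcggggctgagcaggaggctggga
AGATAA lay 43 bases before the start in Rhd, 56 in Kel and 86, on the other strand, in Alas2. It was not among these 250 letters in Hba-a1. The related letters tgataa, another form of the GATA site, stand in the Hba-a1 and Kel windows and were not marked. The windows of Hba-a1 and its duplicate Hba-a2 shared an identical run of 247 bases. None of these letter runs overlap in the windows printed, and the 3 reverse CACCC copies of Alas2 stand side by side.

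Values are scaled to each array's 75th percentile of probe signals, and differences are log2 values of the Loxl3-/- minus the Loxl3+/+ array. The error after ± is the scanner software's own, carried to the difference. It was close to 0.20 for bright probes and holds no variation between animals. For 251 probes printed 10 times and above background, the SD of the difference over repeated spots had a median of 0.112. On the arrays, 54.7% and 56.8% of probes were well above background, Loxl3+/+ first, and the 75th percentile was a signal of 974 and 1400. All 16 spleen markers checked, among them B cell, T cell and red pulp macrophage genes, were above background on both arrays, with a median difference of −0.10.

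The members measured here were mostly lower on the Loxl3-/- array by small amounts. Of the 29 measured members, 25 had a difference below 0 and 4 one above 0, against 59.2% and 40.8% of all measured genes. Their median difference was −0.39, beside −0.09 for all measured genes. At least 2-fold lower were 3 members (10.3%), against 1.98% of all genes: the beta-globin gene Hbb-b2, the Rh blood group gene Rhd and the actin-binding protein gene Dmtn. Dmtn was measured only through the array where it was high, and among probes above background on both arrays 2 of 28 members were at least 2-fold lower, against 1.80% of all genes. None was at least 2-fold higher, against 2.11% of all genes. At a 1.5-fold threshold 6 members were lower and none higher, against 9.29% and 7.49%. By more than 2 software errors, 13 members were lower and none higher, beside 17.3% and 9.97% of all genes. In whole spleen, fewer erythroid cells and less of an RNA in each cell cannot be told apart. These shares describe 2 arrays.

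**Figure D1:**
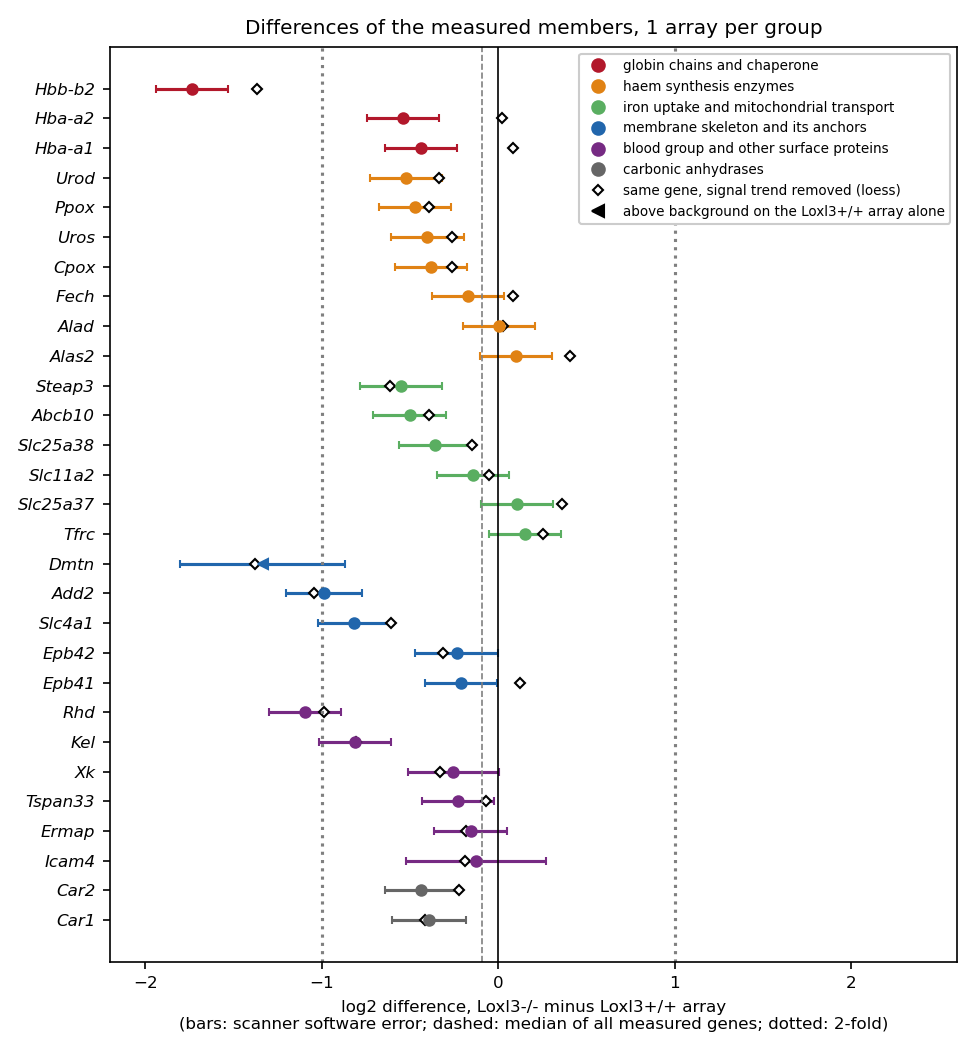
Log2 difference of each of the 29 measured members on the horizontal axis, Loxl3-/- minus Loxl3+/+ array, coloured by role, with the scanner software's error as a bar and the value after removal of the signal trend as a diamond. Hbb-b2, Dmtn and Rhd lie beyond the 2-fold line at −1, and the alpha-globin values of −0.43 and −0.54 move to 0.09 and 0.02 once the trend is removed.

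Bright genes as a whole were lower on the Loxl3-/- array, which bears on globins most. Over all measured genes split in 10 equal parts by mean signal, the median difference went from 0.10 in the dimmest to −0.34 in the brightest. Of the 29 members, 7 lay in the brightest of these parts, with a median difference of −0.21, beside −0.34 for all genes there. Against the median of their own part, 22 of the 29 members were lower, and the median gap over all 29 was −0.22. The 13 members in the brightest 3 parts had a median difference of −0.40 and the other 16 one of −0.38. With the trend removed by loess, a smooth curve of difference on signal, 21 members were below 0. The median of the 29 members was −0.26, beside −0.01 for all genes, and 21 members lay below that all-gene median.

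**Figure D2:**
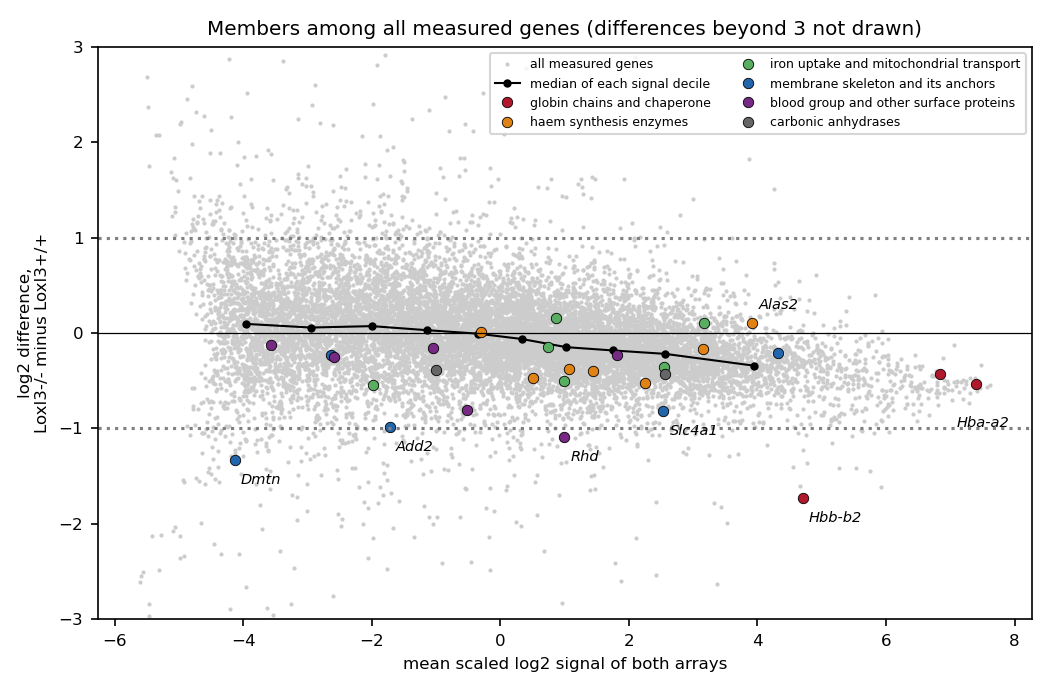
Each measured gene as a grey point, with mean scaled log2 signal on the horizontal axis and log2 difference (Loxl3-/- minus Loxl3+/+) on the vertical axis, members in colour by role, and the median of each of 10 equal parts by signal as a black line (48 genes with a difference beyond 3 are not drawn). The line falls from 0.10 to −0.34, Hba-a1 and Hba-a2 sit at the bright end close to the other bright genes, and Hbb-b2 lies far below them.

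The globin chains did not move together. Hbb-b2, one of the adult beta-globin genes, had a signal of 46226 on the Loxl3+/+ array and 19977 on the Loxl3-/- array. Its difference was −1.73 ± 0.20, or 3.32-fold lower, and 0.525% of all measured genes had a lower value. It stayed at least 2-fold lower under all 10 settings tried, between −1.83 and −1.33. These are not 10 separate checks, since the choices of probe and filter leave a bright gene with 1 probe unchanged. The alpha-globin genes had a pair of similar values. Hba-a1 had signals of 129901 and 138087, Loxl3+/+ first, for a difference of −0.43 ± 0.20, and its sign turned with quantile normalization (0.08), loess (0.09) and the deposited value table (0.08). Hba-a2 had signals of 197516 and 195589 and a difference of −0.54 ± 0.20, which was 0.02 under loess. The 138 brightest genes on these arrays, the top 1% by mean signal, had a median difference of −0.56. No spot on either array was flagged as saturated. The coding sequences of these alpha-globin genes are near copies, as are those of adult beta-globin genes, so their probes may read each other's RNA.

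Adult beta globin is also read by probes for Hbb-bt and Hbb-bs, outside the members and named here after their values were seen. Mouse strains differ at this locus: some carry Hbb-b1 and Hbb-b2, others Hbb-bs and Hbb-bt, and the labels do not give the strain. The Hbb-bt probe had signals of 111351 and 106917, a difference of −0.58 ± 0.20 that was −0.08 under loess. The Hbb-bs probe had 1253 and 1820, a difference of 0.02 ± 0.20. Of the probes for adult beta globin, then, only that of Hbb-b2 passed 2-fold. For Hbb-b1 and for Ahsp, the alpha-globin chaperone gene, no probe was matched under these names and they are not analysed here. Names at the beta-globin locus have changed between annotations, and the probe named Hbb-bt here, by its accession in GRCm38.p6, may be called Hbb-b1 in older ones.

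Haem synthesis genes had a median difference of −0.38, and none of the 7 passed 2-fold. The first step in red cells, and the one that sets the rate, is made by Alas2, whose signal was 14207 on the Loxl3+/+ array and 21893 on the other. Its scaled difference was 0.10 ± 0.20, within the error, and it was above 0 under all 10 settings, reaching 0.41 under loess. Alad, which joins 2 molecules of aminolevulinic acid, was at 0.01 ± 0.21 (signals 793 and 1144). Its sign changed among settings, from −0.09 to 0.15.

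Later enzymes of the pathway had the lower values. Uros, which closes the porphyrin ring, had signals of 3028 and 3296 and a difference of −0.40 ± 0.20. Urod, the decarboxylase that follows, had 5545 and 5542 and a difference of −0.52 ± 0.20. The mitochondrial oxidase genes Cpox and Ppox were at −0.38 ± 0.20 (2324 and 2570) and −0.47 ± 0.20 (1623 and 1683). All 4 were below 0 under all 10 settings, Urod between −0.62 and −0.33. Fech, which inserts the iron, was at −0.17 ± 0.20 (9221 and 11770) and turned to 0.08 under loess and to 0.04 with quantile normalization and with the deposited value table. So as reported Alas2, Alad and Fech were near 0 and Uros, Urod, Cpox and Ppox lay lower, by less than 1.5-fold. Under loess Alas2 was at 0.41, no longer near 0, and those 4 genes ran from −0.39 to −0.26.

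Iron handling genes had a median of −0.25, with none of 6 at 2-fold, and that median was −0.10 under loess and −0.02 with the median of each gene's probes. Tfrc, the transferrin receptor, had the highest difference of any member, at 0.15 ± 0.20 (signals 1690 and 2700). Its main probe was printed 10 times, and the spots ran from −0.03 to 0.48 with an SD of 0.150. Of its other probes, 1 was above background on both arrays, at 0.08. Slc25a37 (mitoferrin), the iron importer of the inner mitochondrial membrane in red cell precursors, was at 0.10 ± 0.20 (8495 and 13120), with its other probe at 0.18. These 2 were above 0 under all 10 settings, as Alas2 was.

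The other iron genes had values below 0 with their brightest probe, and none passed 1.5-fold. Abcb10, a mitochondrial transporter that binds and stabilises mitoferrin, had signals of 2305 and 2338 and a difference of −0.50 ± 0.20. Slc25a38, the mitochondrial glycine carrier that feeds the first haem step, was at −0.36 ± 0.20 (6475 and 7254). Steap3, the ferrireductase of endosomes, was at −0.55 ± 0.23 (298 and 293). Its dimmer probe passed background in Loxl3-/- only, at 0.29 ± 0.45, within the error. Slc11a2 (DMT1), which carries iron out of the endosome, was at −0.14 ± 0.20 (1712 and 2229), and its dimmer probe was at 0.32, so its direction is open. With the median of all detected probes in place of the brightest, Steap3 moved to −0.13 and Slc11a2 to 0.09.

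Genes of the membrane skeleton and its anchors had the lowest median of the groups with more than 3 measured members, at −0.82, over 5 of 8. Slc4a1, the anion exchanger (band 3) that anchors the skeleton, had signals of 7475 and 6094, and its difference was −0.82 ± 0.20, or 1.76-fold lower. Add2, beta adducin, which caps actin at the spectrin junctions, had 417 and 302, a difference of −0.99 ± 0.21 and 1.98-fold lower. Both stayed below 0 under all 10 settings, from −0.91 to −0.61 and from −1.08 to −0.83. Add2 lies on chromosome 6, as Loxl3 does, with 57 protein-coding genes between them in the RefSeq annotation, and whether this position plays a part was not tested.

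Dmtn, dematin, which bundles actin, was well above background on the Loxl3+/+ array alone. Its signals were 88.1 and 50.2, near the floor, and the measured difference was −1.33 ± 0.47. Its bound raises the dim signal to the lowest signal well above background there and leaves the error out. By this bound Dmtn was 2.30-fold lower on the Loxl3-/- array. Since it was measured only through the array where it was high, its place among the lower genes follows in part from the filter. With normexp background correction its difference was −0.73. With Dmtn left out, the group's median over 4 genes was −0.53 with the scaling as reported.

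The remaining skeleton genes had small differences. Epb41, protein 4.1, which joins spectrin to actin, had signals of 20987 and 26019 with its brightest probe, a difference of −0.21 ± 0.20 that turned to 0.13 under loess and 0.12 with quantile normalization and with the deposited value table. Of its other probes, both dim, 1 was at −0.62. The other passed background in Loxl3-/- only, at 0.89 ± 0.49, or 1.33-fold higher by its bound, which leaves the error out. Epb42, protein 4.2, a partner of band 3, was at −0.23 ± 0.23 (170 and 208). Sptb (beta spectrin), Ank1 (ankyrin) and Tmod1 (tropomodulin) were not well above background on either array, so the core of the skeleton was not measured.

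**Figure D3:**
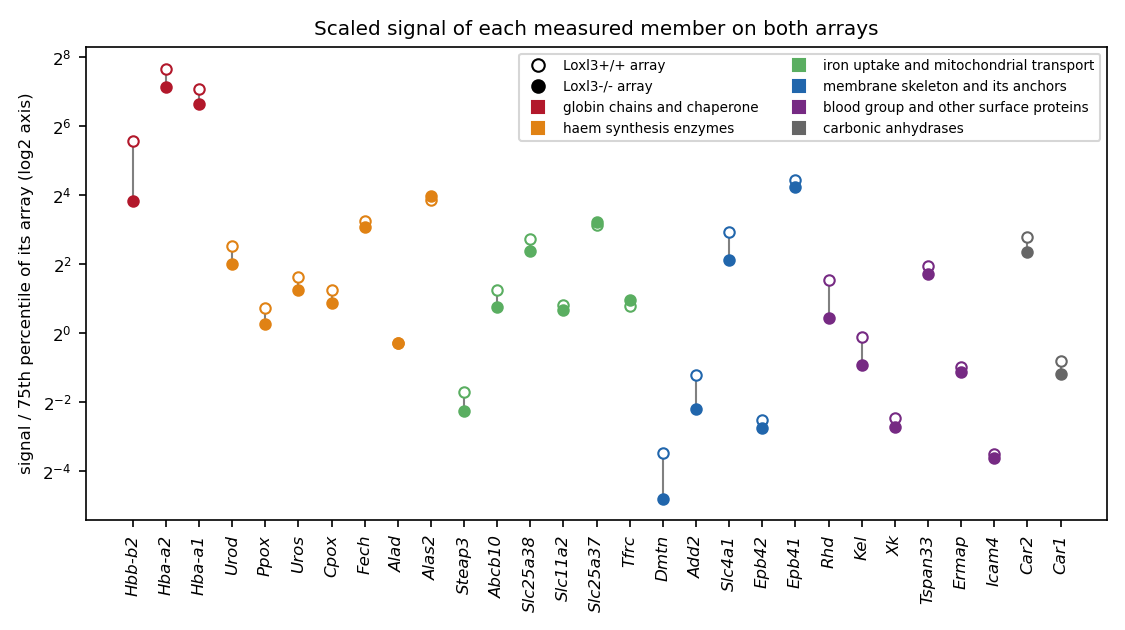
Signal of each measured member divided by its array's 75th percentile (log2 axis), open circles for the Loxl3+/+ and filled circles for the Loxl3-/- array, coloured by role. The gap within a gene is the result, while heights of different genes come from different probes and cannot be compared, and the Loxl3-/- value of Dmtn is not well above background.

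Among blood group and surface protein genes, Rhd and Kel were the lower ones. Rhd, part of the Rh complex in the membrane, had signals of 2835 and 1908 and a difference of −1.09 ± 0.20, or 2.13-fold lower. It was at least 2-fold lower under 8 of 10 settings, and at −0.95 with scaling on probes above background on both arrays and −0.98 under loess. Kel, a metalloprotease and blood group antigen, had 906 and 742 and a difference of −0.81 ± 0.21, between −0.91 and −0.66 over the settings. Xk, the protein that Kel is linked to on the red cell surface, was at −0.25 ± 0.26 (177 and 213). Rhag, the other part of the Rh complex, was too dim on both arrays to be called above background.

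Ermap, an erythroid membrane protein that carries the Scianna blood group, gave 3 answers with 3 detected probes. Its chosen probe was at −0.16 ± 0.21 (495 and 639), another with a similar signal (595 and 384) at −1.16 ± 0.21, and a dim one at −0.49. All were below 0 but they disagree by more than their errors on whether Ermap passed 2-fold. Icam4, the adhesion molecule of the Landsteiner-Wiener blood group, was dim, at −0.12 ± 0.40 (85.4 and 113), with a positive value of 0.02 with scaling on probes above background on both arrays. Tspan33, a tetraspanin of erythroblasts and B cells, was at −0.23 ± 0.20 (3723 and 4563). The group's median was −0.24 over 6 of 7 genes.

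The carbonic anhydrase genes, which speed the exchange of carbon dioxide and bicarbonate in red cells, had close values. Car1 was at −0.39 ± 0.21 (signals 556 and 609), while its dimmer probe was at 0.25 ± 0.24. Car2 was at −0.43 ± 0.20 (6675 and 7097). Both were below 0 under all 10 settings, Car1 reaching −0.07 with the median of its probes.

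Promoter letters did not sort the members by their difference. RefSeq windows were matched for 24 of the 35 members, some with several starts, giving 32 windows. AGATAA or its reverse was in 6 of these (18.8%), beside 9.99% of all 32851 windows. The 6 genes were Rhd, Kel, Steap3, Epb42, Icam4 and Alas2, with differences from −1.09 to 0.10 and a median of −0.39, and the 15 measured members with windows but without these letters had a median of −0.38. CACCC was in 65.6% of the members' windows and 52.0% of all, and CCAAT in 46.9% and 33.8%. These are counts of letters, not of bound sites, and other forms of the GATA site were not counted.

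Over all genes measured, 59.2% were below 0, and the other genes of these pathways are read against that share. At least 2-fold higher were 2.11% of all genes, and 1.98% were at least 2-fold lower. Of 25 measured further globin, haem and iron genes, 15 (60%) were below 0 with a median of −0.18, and 1 was at least 2-fold higher and none lower. The ferritin heavy chain gene Fth1, which stores iron and was picked here after its value was seen, was at −0.60 ± 0.20, and −0.08 under loess, another very bright gene (133807 and 126757). Of 26 further red cell membrane and cytosol genes, 17 (65.4%) were below 0, the median was −0.15, 2 were at least 2-fold higher and none lower. Of 9 reticulocyte maturation genes, 6 (66.7%) were below 0, none passed 2-fold, and the ends were Ulk1, an autophagy kinase, at −0.63 and Ube2l6, an ISG15-conjugating enzyme, at 0.92.

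Erythroid regulators had a median of −0.38, with 16 of 18 below 0. At least 2-fold lower were Tal1 (−1.15), Gata1 (−1.12) and Nfe2 (−1.09), transcription factors that erythroid cells and megakaryocytes share. Above 0 were 2 regulators, among them Klf1 at 0.73 ± 0.22 (289 and 691), which did not pass 2-fold. Also short of 2-fold were Stat5a at −0.91 ± 0.20, Gfi1b at −0.87 ± 0.22 and Epor at −0.69 ± 0.20. Jak2 was at −0.39 ± 0.20, close to the median of the list, and at −0.14 under loess. Like Klf1, these genes are named outside the rule for naming genes.

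Markers of pancreas, neutrophil precursors and platelets differed by more on the same arrays. All 22 pancreas acinar markers were at least 2-fold higher on the Loxl3-/- array, with a median of 3.73 and summed signals of 25414 and 346018, and 20 were above background on both arrays. All 14 neutrophil precursor markers were below 0 (median −2.21, 13 at least 2-fold lower, summed signals 214642 and 87163). Megakaryocyte and platelet markers had 10 of 10 below 0, 6 of them at 2-fold, and a median of −1.49 (summed signals 54523 and 25763). Of 21 proliferation genes 19 were below 0, with a median of −0.50. Red pulp macrophage markers split evenly, 6 above and 6 below 0, with a median of 0.01. The part of these differences in the values of the red cell genes was not tested.

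**Figure D4:**
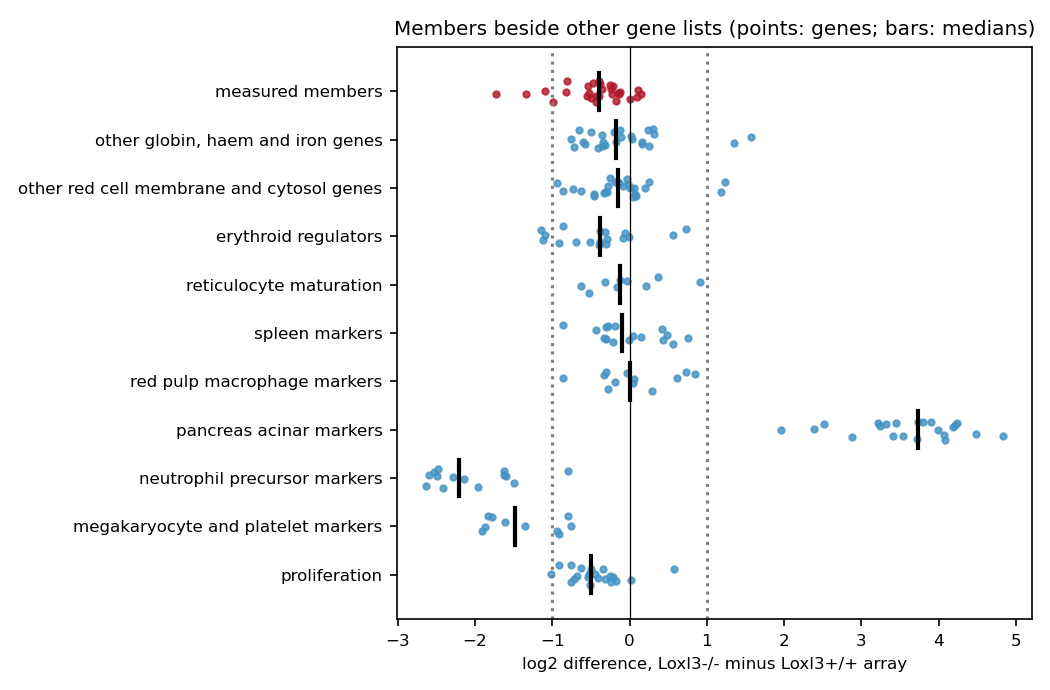
Log2 difference (Loxl3-/- minus Loxl3+/+) of each measured gene as a point, by list, with the list median as a bar and dotted lines at 2-fold. The members have a median of −0.39, pancreas markers one of 3.73 and neutrophil precursor markers one of −2.21.

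The members' median stayed below that of all genes under each of the 10 settings. It ran from −0.48 with scaling on the array median to −0.24 with scaling on probes above background on both arrays, and its gap to all genes from −0.33 to −0.22. That second scaling moved the median of all genes by 0.15. Of all genes past 2-fold, 51.7% were higher on the Loxl3-/- array, a share that was 39.0% with median scaling and 71.0% with scaling on probes above background on both arrays. In all, 19 of the 29 members were below 0 and 3 above 0 under every setting that measured them. Over all genes, 59.2% were below 0 as reported. How many of all genes kept 1 sign under every setting was not counted, so the 19 have no share to be read against.

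**Figure D5:**
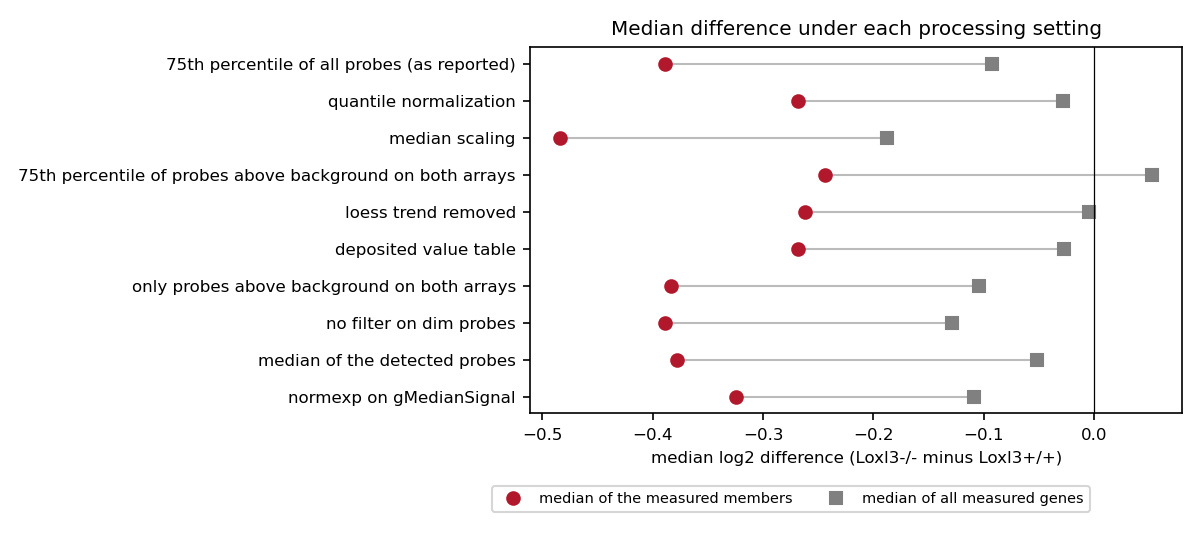
Median log2 difference (Loxl3-/- minus Loxl3+/+) of the measured members (red circles) and of all measured genes (grey squares) under each processing setting. The members' median lies between −0.48 and −0.24 and below that of all genes in each row.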

How the data were processed

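Spleen RNA labelled with Cy3 was measured on 1 array per group, and groups follow the genotype in the labels. The deposited scanner files hold linear intensity per spot, made with Feature Extraction 11.0.1.1 on the build mm9, per the file headers. Both arrays carry the same scan time and identifier, per the file headers. The deposited value table holds log2 values that match the scanner signals after quantile normalization, as read from its values, and both columns have a median of 6.71.

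Control spots and spots flagged as outliers (110 and 132) were left out, log2 processed signals were averaged per probe (39420 probes) and each array's 75th percentile was subtracted, a shift of 0.52 between the arrays. Accessions matched RefSeq symbols of GRCm38.p6 for 27226 probes, and the only coordinates given are those of the RefSeq promoter windows, since the array's build differs. A gene takes its brightest probe among those above background on at least 1 array. Where only 1 array was above background the gene counts by its bound. This is the bright signal over the higher of the dim signal and the lowest signal well above background there, without the error. All members are named, and of other lists the genes at 2-fold or, where none is, the largest difference in each direction. Some further genes, such as Klf1, are named outside this rule. The calculation was checked on simulated data. The members and lists were chosen with earlier results of these data known. Alternatives used limma 3.58.1 (normexp, offset 50) and statsmodels 0.14.6 (loess, span 0.3). Depth does not apply to arrays, and their number limits the precision.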

Additional observations from a re-analysis of the deposited data

How the results depend on the processing

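Of 9 alternative settings, all left the count of members at least 2-fold lower between 2 and 4 (3 as reported). The share of all genes at least 2-fold lower ran from 1.29% with normexp to 3.38% without a filter on dim probes (1.98% as reported). None of these settings gave a member at least 2-fold higher. With a 1.5-fold threshold 6 members were lower, and over all genes 1274 were lower and 1027 higher, against 271 and 290 at 2-fold. Without a filter on dim probes 699 genes were lower and 613 higher. With normexp these were 177 and 150. Scaling on probes that both arrays call above background gave 445 higher genes. The planned normexp on the mean spot signal was not run because the files analysed hold median signals, and the median signal was used instead, a choice made after the data were seen. The cause of these shifts was not tested. The globin median was −0.54 as reported, −0.04 with quantile normalization, −0.03 with the deposited value table and 0.02 under loess. No paired analysis was possible because each group has 1 array.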

Other observations

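Some genes of the wider red cell lists went the other way, at least 2-fold higher on the Loxl3-/- array, as 2.11% of all genes were. Hbb-bh1, an embryonic beta-like globin gene, was above background on that array alone (signals 34.1 and 145). It was at 1.57 ± 0.57, or 2.42-fold higher by its bound, which leaves the error out. Of the other embryonic globin genes, Hbb-y and Hba-x were not well above background on either array. Bcam, the Lutheran blood group gene, which is also made in epithelium and endothelium, was above background on the Loxl3-/- array alone. Its difference was 1.19 ± 0.50, or 2.26-fold higher by its bound. Hbb-bh1 and Bcam were measured only through the array where they were high, so their direction follows in part from the filter. Atp1b2, a subunit gene of the sodium pump, was at 1.24 ± 0.22 (196 and 663). Each value rests on 1 probe and 1 array per group.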
